A study of Mus musculus with 4 samples.

Results

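Hypersensitive sites were described at the genes of the 2 nuclear receptors that the cells were treated to activate and of 2 transcription factors that work with them. These were Nr3c1, which encodes the glucocorticoid receptor (GR), Esr1, which encodes estrogen receptor alpha (ER), Foxa1 and Gata3. The members were all listed regions that overlapped 1 of 4 windows fixed by position in the mm9 build: chr18:39500000-39720000 for Nr3c1, chr10:5280000-5790000 for Esr1, chr12:58580000-58710000 for Foxa1 and chr2:9720000-9860000 for Gata3. The windows held 98 of the 202687 regions of the 4 lists, and after joining overlapping regions 43 of 103288 merged sites: 16 at Nr3c1, 12 at Esr1, 5 at Foxa1 and 10 at Gata3. No measured value entered the rule, but the members were chosen with earlier results of these data known. Sites are numbered along the chromosome within each window.

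The cells were of the mouse mammary line 7438, which carries GFP-tagged GR and Cherry-tagged ER under a tetracycline-regulated promoter. Tetracycline was withdrawn 24 h before hormone in all 4 groups, the untreated cells included, which per the labels' protocol serves to switch on both tagged receptors. Their levels were not measured here. All 4 groups also shared 10% serum, tetracycline at 5 µg/ml until its withdrawal, and plating 48 h beforehand. The groups were untreated cells and cells given, for 30 min, dexamethasone at 100 nM (Dex, a synthetic glucocorticoid that activates GR), estradiol at 100 nM (E2, which activates ER), or both at 100 nM each. Open chromatin was read by DNase-seq, which counts DNA ends released by the nuclease DNase I. There was 1 library per condition, so no difference between treatments could be set against a spread between replicates, and no p-value is given. The labels do not say from which species the tagged receptors were taken, and the mammary identity of the cells was not checked against marker genes here.

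GR and ER are ligand-activated transcription factors that bind DNA at hormone response elements, mostly at chromatin that is already open. FOXA1 is a forkhead protein known as a pioneer factor, because it can bind sites in closed chromatin and make them accessible to receptors such as ER. GATA3 is a zinc-finger factor needed for luminal mammary cells, and in breast cells it and ER are known to act on each other's genes. Glucocorticoids are known to lower the transcription of Nr3c1 itself in many tissues. Accessible sites near these genes are candidates for the elements that set how much receptor and cofactor a mammary cell makes.

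The neighbouring protein-coding genes in RefSeq (GRCm38.p6) are Gm5820 and Pabpc2 for Nr3c1, Ccdc170 and Syne1 for Esr1, Mipol1 and Ttc6 for Foxa1, and Celf2 and Taf3 for Gata3. Whether a site belongs to the named gene or to a neighbour was not tested, and exons and introns were not analysed here.

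The promoter of Nr3c1 was not analysed here, so the promoter description does not cover the GR gene. The promoters of the other genes, Esr1, Foxa1 and Gata3, were taken by symbol from the RefSeq promoter table. They are shown because they are the regulatory sequence that each gene is known to start from, 250 bases before to 50 after the start, read 5′ to 3′ on the gene's strand. The table is in the GRCm38.p6 build and the hypersensitive regions are in mm9, so no listed region was placed on these sequences. Capitals mark CpG dinucleotides, the pairs that are dense in CpG island promoters.
Foxa1 (GRCm38.p6 chr12:57546062-57546361, minus strand): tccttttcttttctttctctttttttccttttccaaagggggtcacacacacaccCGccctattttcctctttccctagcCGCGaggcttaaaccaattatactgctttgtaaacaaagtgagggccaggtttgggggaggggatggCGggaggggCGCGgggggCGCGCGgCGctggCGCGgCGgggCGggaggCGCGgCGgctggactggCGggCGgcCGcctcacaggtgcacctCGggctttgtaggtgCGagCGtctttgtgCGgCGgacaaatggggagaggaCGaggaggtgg
Gata3 (GRCm38.p6 chr2:9878551-9878850, minus strand): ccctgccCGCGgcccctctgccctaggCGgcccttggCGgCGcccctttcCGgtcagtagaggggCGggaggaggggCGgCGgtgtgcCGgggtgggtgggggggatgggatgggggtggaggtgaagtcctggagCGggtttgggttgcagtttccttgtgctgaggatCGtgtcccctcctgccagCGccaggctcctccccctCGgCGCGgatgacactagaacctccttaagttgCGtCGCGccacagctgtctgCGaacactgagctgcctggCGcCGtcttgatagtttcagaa
Esr1, upstream start (GRCm38.p6 chr10:4611739-4612038, plus strand): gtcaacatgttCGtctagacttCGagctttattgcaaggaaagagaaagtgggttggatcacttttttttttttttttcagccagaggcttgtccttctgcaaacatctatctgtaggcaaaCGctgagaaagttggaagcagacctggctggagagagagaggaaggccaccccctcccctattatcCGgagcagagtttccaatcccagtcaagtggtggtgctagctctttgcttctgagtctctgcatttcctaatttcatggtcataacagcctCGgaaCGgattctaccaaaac
Esr1, downstream start (GRCm38.p6 chr10:4709908-4710207, plus strand): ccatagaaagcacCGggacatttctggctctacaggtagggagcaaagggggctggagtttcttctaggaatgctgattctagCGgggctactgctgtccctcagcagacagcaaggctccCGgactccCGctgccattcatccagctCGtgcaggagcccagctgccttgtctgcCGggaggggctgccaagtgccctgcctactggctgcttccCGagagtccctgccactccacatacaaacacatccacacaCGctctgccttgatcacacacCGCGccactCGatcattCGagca

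The Foxa1 promoter held 26 CpGs and the Gata3 promoter 22, against 6 and 12 at the upstream and downstream Esr1 starts and a median of 7 over all 32851 promoters of the table. Their GC contents were 62.3% and 67.3%, against 46.3% and 59.3% for Esr1. Both strands were searched for the hexamers that GR (AGAACA) and ER (AGGTCA) elements are built from, the forkhead core TGTTTAC and the GATA core AGATAA. A single match was found in the 4 windows of 300 bases, the forkhead core on the minus strand at bases 110 to 116 of the Foxa1 sequence (gtaaaca as printed). That core occurs in 3.65% of all promoters in the table, the GR hexamer in 19.0%, the ER hexamer in 16.3% and the GATA core in 11.2%. A match is a description of the letters and shows no binding.

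The Nr3c1 and Gata3 windows were rich in hypersensitive regions and the Esr1 window was poor. In untreated cells Nr3c1 had 72.7 listed regions per Mb and Gata3 64.3, against 25.6 over the whole list, whereas Foxa1 had 23.1 and Esr1 17.6. After Dex the values were 54.5 at Nr3c1, 35.7 at Gata3, 15.4 at Foxa1 and 11.8 at Esr1, beside 19.9 for the list. The E2 library had 40.9 at Nr3c1, 28.6 at Gata3, 23.1 at Foxa1 and 3.92 at Esr1, beside 13.8. With both hormones they were 54.5, 28.6, 7.69 and 1.96, beside 19.5. The Nr3c1 and Gata3 windows thus stood above their list in every library and the Esr1 window below it. At Foxa1 these densities rest on 1 to 3 regions, and at Esr1 on 2 after E2 and 1 with both hormones. The Gata3 densities rest on 5 regions after Dex and 4 in each of the other hormone libraries. The value of a list is taken over the whole span of its regions, not over windows around genes.

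**Figure D1:**
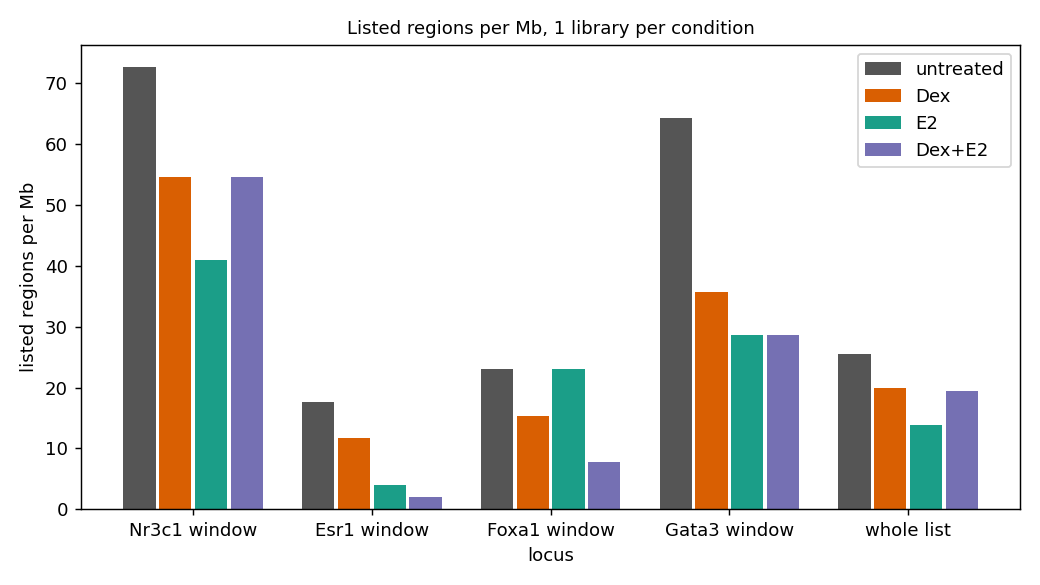
Listed hypersensitive regions per Mb (vertical axis) in the 4 windows and in the whole list, 1 bar per library. The Nr3c1 bars (40.9 to 72.7) and Gata3 bars (28.6 to 64.3) lie above those of the whole list (13.8 to 25.6), and the Esr1 bars (1.96 to 17.6) lie below.

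Of the 43 sites, 12 (27.9%) were in all 4 lists, where 20% of all merged sites of the genome were, and 22 (51.2%) were in 1 list only, against 58.8%. By locus, 8 of 16 Nr3c1 sites, 1 of 12 Esr1 sites, 1 of 5 Foxa1 sites and 2 of 10 Gata3 sites were in all lists. The densest value of a site lay between 14.3 and 63.8 for the sites of all 4 lists, and between 4.34 and 13.5 for those of 1 list. Density here is the deposited maximum tag density of a region, in units scaled per library by the authors, and average density is the mean over the region. Over the genome, 82.1% of untreated sites with a maximum density of 14.3 or more and 6.41% of those below it were in all 4 lists. That limit was read from the member sites, so their own split by it is not a result.

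Missing from the untreated list were 7 of the 43 sites (16.3%), compared with 36.8% of all merged sites. Each of the 7 was in a single hormone list: 3 in the Dex list, 3 in the E2 list and 1 in the Dex+E2 list. No member site was listed in both Dex libraries, in both E2 libraries or in all 3 hormone libraries while missing from untreated cells. Over the genome such sites made up 1.92% (both Dex lists only), 1.32% (both E2 lists only) and 0.36% (all 3 hormone lists), so a count of 0 among 43 is near the background. Sites of the untreated list alone numbered 15 (34.9%, against 26.0% of all merged sites). The untreated and Dex lists alone shared 5 further sites (11.6%, against 4.11%), 3 of them at Esr1. The untreated, Dex and Dex+E2 lists shared 3 sites that E2 lacked, and 1 site was in the untreated and E2 lists only.

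**Figure D2:**
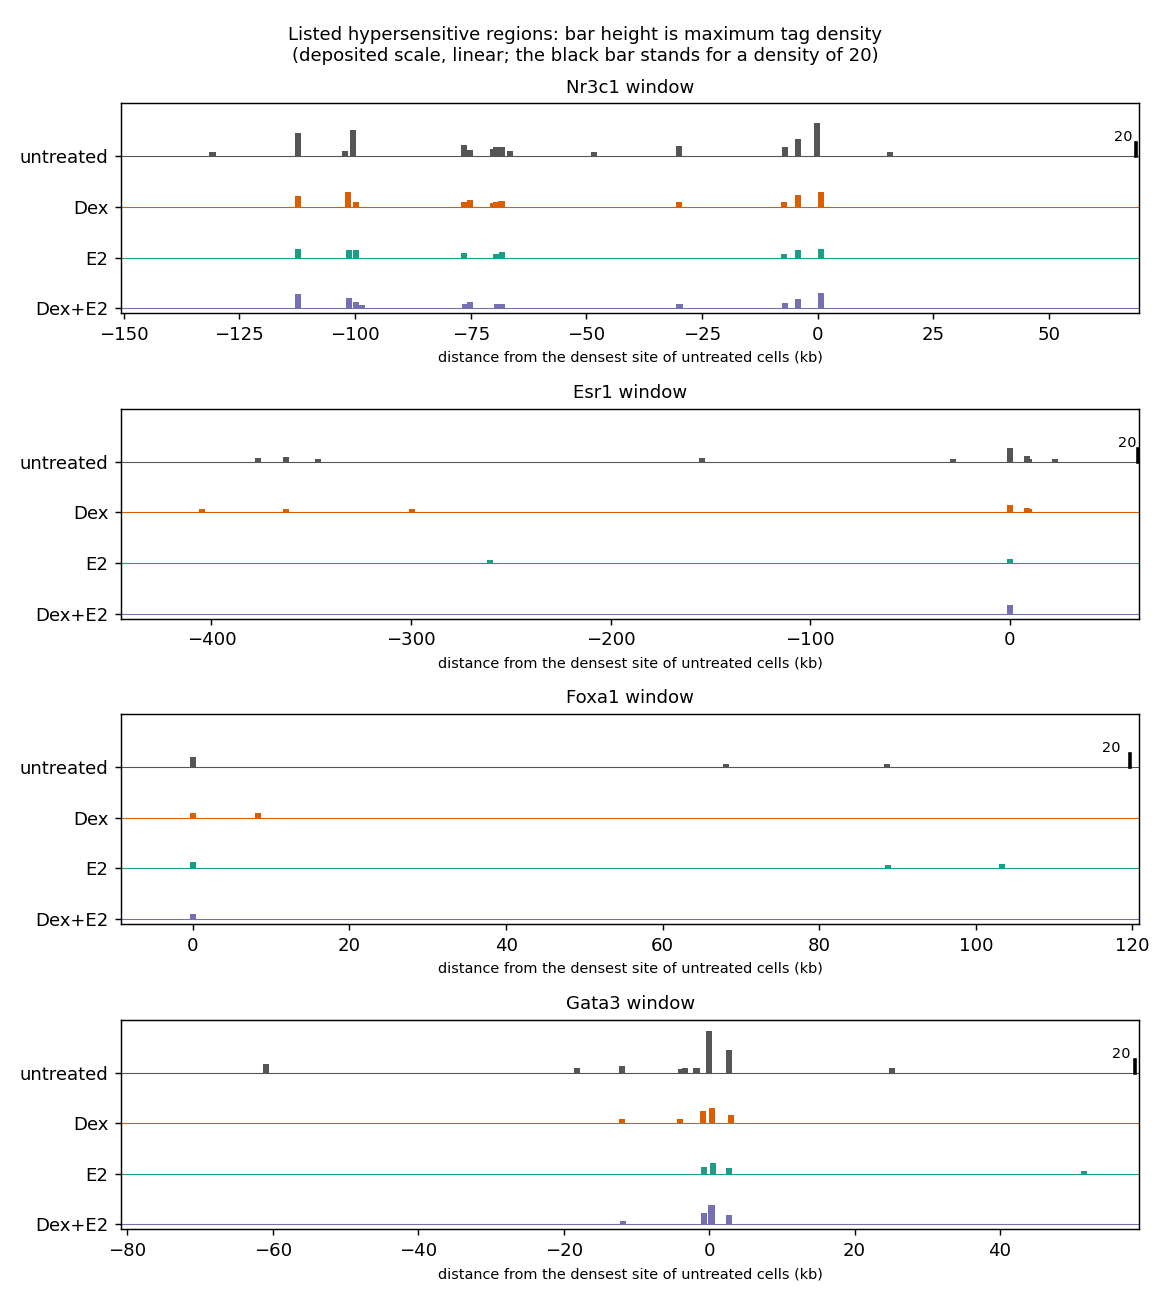
Maps of the 4 windows, with the distance from the densest untreated site in kb on the horizontal axis and 1 track per library. Each bar is a listed region and its height is the maximum tag density on a linear scale (black bar, a density of 20). The Nr3c1 tracks hold 2 groups of tall bars about 100.9 to 112.3 kb apart, the Gata3 tracks 1 group made of sites 7 and 8, and the Esr1 window holds 1 site that recurs in all 4.

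Densities are given as deposited unless called relative. Across the genome, 20687 regions were common to the 4 lists. Their median log2 ratio against untreated cells stood at −1.56 in the E2 library, −1.04 in the Dex library and −0.95 in the co-treated one, so an order of libraries at 1 site on the deposited scale holds this shift too.

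Nr3c1, the GR gene, had 3 sites with maximum densities from 35.7 to 51.8 in untreated cells, with weaker ones between them. The densest was site 15 (chr18:39648977-39652091), with a maximum density of 51.8 in untreated cells (exact Poisson 95% interval 44.9 to 59.4), 22.5 after Dex (18.2 to 27.6), 13.8 after E2 (10.7 to 17.5) and 22.5 after Dex+E2 (18.3 to 27.3). These intervals cover counting error at the summit only. The untreated value stood above the others, E2 was lowest, and both Dex libraries were level. Average densities were 7.46, 3.48, 3.36 and 3.996 in the same order (untreated, then Dex, then E2, then co-treated), which is used for all series of 4 values that follow. The untreated region was 3000 bp long, longer than 99.7% of its list, against 1790, 725 and 1578 bp in the hormone libraries. The hormone regions all began at least as far right as 39650301, so the left side of the untreated region was not listed in them.

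Close to it lay site 14 (chr18:39645470-39647129), 4.2 kb to the left, with maximum densities of 27.0, 18.4, 11.2 and 13.6 and average densities of 4.81, 3.62, 2.13 and 2.53. Its length hardly differed, at 1659, 1506, 1541 and 1557 bp. Site 13 (chr18:39643031-39643903) was weaker, at 14.8, 8.08, 5.20 and 7.49, with averages of 3.28, 1.73, 1.44 and 1.81. In this cluster of 3 sites, whose centres lie within 7.1 kb, the untreated library was highest and E2 lowest throughout as deposited.

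Another dense part of the window lay 100.9 to 112.3 kb to the left of site 15. Site 2 (chr18:39537773-39538635) had maximum densities of 35.7 (30.0 to 42.1), 16.9 (13.1 to 21.4), 13.0 (10.0 to 16.6) and 22.0 (17.8 to 26.8), and averages of 7.78, 3.58, 2.68 and 4.93. Site 3 (chr18:39548032-39551281) reached 40.6 (34.5 to 47.4), 23.5 (19.0 to 28.7), 11.8 (8.98 to 15.2) and 15.4 (12.0 to 19.6), with averages of 7.06, 4.01, 3.56 and 3.63. At site 2 the co-treated library was the highest of the hormone libraries, and at site 3 the Dex library was. The intervals of Dex and Dex+E2 overlap at both.

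Site 3 was listed as 2 regions in each hormone library, and the ratio of their maximum densities differed. After Dex the left region (chr18:39548032-39549937) had a maximum density of 23.5 and the right one (chr18:39550493-39551117) 7.59, a ratio of 3.10 (2.05 to 4.80). The E2 regions stood at 11.0 on the left (chr18:39548873-39549495) and 11.8 on the right (chr18:39550482-39551079), a ratio of 0.93 (0.63 to 1.37). With both hormones the values were 15.4 and 9.07, a ratio of 1.70 (1.13 to 2.58). The ratio is taken within a library, so the scaling of the libraries does not enter it, and the intervals of Dex and E2 do not overlap. The untreated list joined both parts in chr18:39548835-39551281 (40.6), with a separate region at 7.91 further left, and gives no such ratio. The left region was 1905 bp long after Dex, 622 bp after E2 and 756 bp with both hormones. After Dex it also covered the stretch of that separate region, so the left maxima may come from different summits.

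**Figure D3:**
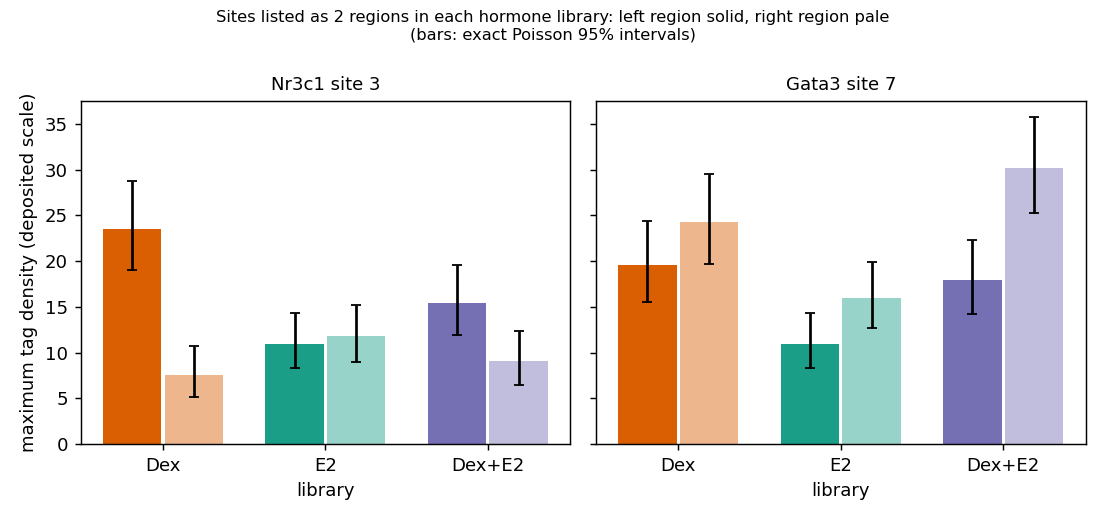
Maximum tag density (vertical axis, deposited scale) of the left (solid) and right (pale) region of Nr3c1 site 3 and Gata3 site 7 in the hormone libraries, with exact Poisson 95% intervals. At Nr3c1 site 3 the left region is 3.10 times the right one after Dex and 0.93 times after E2, and at Gata3 site 7 the right region is higher in all 3 libraries.

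The middle of the Nr3c1 window held a run of modest sites. Site 5 (chr18:39573864-39574482) had maximum densities of 18.4, 7.59, 7.00 and 6.58 and averages of 5.45, 2.29, 1.92 and 1.69. Site 8 (chr18:39580813-39581437) stood at 14.3, 7.35, 5.60 and 6.81 (averages 3.82, 1.75, 1.77 and 2.05). Site 9 (chr18:39581941-39582560) stood at 14.3, 8.82, 8.20 and 7.03 (averages 4.17, 2.38, 1.92 and 2.09). At these 3 sites the hormone libraries lay within each other's counting intervals.

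Of the 16 Nr3c1 sites, 8 were missing from the E2 list, 5 from each Dex-treated list and 1 from the untreated list. Among Nr3c1 sites in the untreated or the E2 list, 46.7% were in untreated only, against 54.7% of all such merged sites. The same shares were 26.7% against 40.5% for Dex and 31.25% against 41% for Dex+E2. The Nr3c1 shares rest on 7 of 15 sites for E2, 4 of 15 for Dex and 5 of 16 for Dex+E2. All of these comparisons use the same untreated library. Whether the shares differ from those of the genome was not tested. The E2 list is the shortest, and with all lists cut to its length Nr3c1 had 11 sites in the untreated list, 10 in Dex, 8 in E2 and 10 in Dex+E2. Site 6 (chr18:39575072-39575742) had 9.18 untreated (6.43 to 12.7), 10.04 after Dex (7.21 to 13.6) and 8.85 after Dex+E2 (6.29 to 12.1), with averages of 2.63, 3.09 and 2.45, and was not listed after E2. It was the Nr3c1 site whose deposited value did not drop between the untreated and the Dex library. Site 12 (chr18:39620299-39620941) had 16.8, 8.08 and 7.03 in the same 3 libraries, with averages of 4.04, 2.33 and 1.73. Site 7 (chr18:39580062-39580589) was listed in untreated cells at 11.0 (average 3.18) and after Dex at 5.63 (average 1.63). A missing listing means that the site fell short of the authors' limit in that library, and does not show closed chromatin.

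The other Nr3c1 sites were in 1 list each. Untreated cells alone listed site 1 (chr18:39519483-39519996) at a maximum of 7.14 and an average of 1.67, and site 10 (chr18:39583876-39584317) at a maximum of 7.91 and an average of 2.52. They also alone listed site 11 (chr18:39601919-39602387) at a maximum of 7.40 and an average of 1.97, and site 16 (chr18:39666029-39666480) at 7.14 and 2.50. All 4 were among the weakest untreated regions of the window. The Dex+E2 list alone held site 4 (chr18:39551803-39552084), at 5.22 (3.31 to 7.83) and an average of 1.36, next to the right end of site 3.

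Esr1, the ER gene, showed a single site of more than weak density in its 510 kb window. Site 9 (chr10:5724598-5725819) had a maximum density of 21.2 in untreated cells (16.9 to 26.2), 11.3 after Dex (8.25 to 15.0), 5.80 after E2 (3.88 to 8.33) and 13.4 after Dex+E2 (10.2 to 17.3). Its averages were 3.71, 2.44, 1.38 and 2.61. As deposited the E2 value was lowest, and its interval does not overlap that of the co-treated library. Relative to the median over shared regions (0.56 for Dex+E2 over E2), the log2 ratio of these 2 libraries was 0.64 (−0.02 to 1.34), which includes 0. Its rank within the list (the share of regions with a lower density) was 77.1% in untreated cells, 68.5% with Dex, 72.1% with both hormones and 27.8% with E2, in lists of different lengths. It was the only Esr1 site listed after Dex+E2, and 1 of 2 listed after E2.

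Near it, site 10 (chr10:5733530-5734374) and site 11 (chr10:5734640-5735190) lay 8.7 and 9.7 kb to the right and were listed in the untreated and Dex libraries. Site 10 had maximum densities of 8.42 and 6.37 and averages of 1.80 and 1.52. Site 11 had 5.10 and 4.65, with averages of 1.34 and 1.12. Site 3 (chr10:5362086-5362731), 362.8 kb to the left, showed the same listing at 7.91 and 5.63, with averages of 2.24 and 1.28. For none of these 3 sites did the untreated and Dex intervals separate.

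The other 8 Esr1 sites were in 1 list each and were weak, with 17 to 26 tags at the summit. The 5 in the untreated list were spread over the window. Site 2 (chr10:5348439-5348882) had a maximum of 6.63 and an average of 1.73, site 4 (chr10:5378277-5378725) a maximum of 4.59 and an average of 1.19, and site 7 (chr10:5570564-5571099) a maximum of 5.87 and an average of 1.66. Sites 8 (chr10:5696523-5696774) and 12 (chr10:5747810-5748080) both had a maximum of 4.34, with averages of 0.85 and 1.18. After Dex alone, site 1 (chr10:5320412-5320664) was listed at a maximum of 4.90 (average 1.24) and site 5 (chr10:5425599-5426047) at 5.39 (average 1.13). After E2 alone, site 6 (chr10:5464790-5465041) was listed at 4.40 (2.76 to 6.66), with an average of 0.78. That was the 1 Esr1 site that E2 listed and untreated cells did not.

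Foxa1, the forkhead pioneer gene, had 1 site in all lists, and there E2 was the highest hormone library as deposited. Site 1 (chr12:58588839-58589468), near the left edge of the window, had maximum densities of 16.3 (12.6 to 20.8), 7.35 (4.96 to 10.5), 10.0 (7.42 to 13.2) and 7.71 (5.34 to 10.8). Averages were 4.67, 2.12, 2.81 and 2.83, so by average density the E2 and Dex+E2 libraries were level. As deposited, this was the 1 site of the 12 where E2 led the hormone libraries. Relative to the median E2 led at 4 of the 12, the others being Nr3c1 sites 5, 8 and 9, and by average density relative to its own median at 7. Dex and Dex+E2 also led at 4 each relative to the median. The order of the libraries over all shared regions was not computed. The intervals of the hormone libraries at Foxa1 site 1 overlap.

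The other 4 Foxa1 sites were weak. Site 2 (chr12:58597236-58597672) was listed after Dex alone, at 7.35 (average 1.999), and site 5 (chr12:58692340-58692694) after E2 alone, at 6.20 (average 1.24). Site 4 (chr12:58677714-58678020) had 5.87 in untreated cells and 5.80 after E2, with averages of 1.35 and 1.27, and neither Dex library listed it. Site 3 (chr12:58657046-58657394) was in the untreated list only, at 5.87 (average 1.19). Apart from site 1, no Foxa1 site recurred in more than 2 libraries.

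Gata3, the luminal zinc-finger gene, had the densest site of all 4 windows. Site 7 (chr2:9799435-9802294) reached 63.8 in untreated cells (56.1 to 72.2), 24.2 after Dex (19.7 to 29.5), 16.0 after E2 (12.7 to 19.9) and 30.2 after Dex+E2 (25.3 to 35.8). Averages were 12.0, 4.94, 4.62 and 7.19. In its list it ranked above 94.7%, 89.1%, 84.4% and 91.5% of regions. As deposited the co-treated value was the highest of the hormone libraries, and its interval separates from that of E2 and overlaps that of Dex. Relative to the median, the log2 ratio of Dex+E2 to E2 was 0.35 (−0.06 to 0.77), which includes 0. Untreated cells had 1 region of 2859 bp here, longer than 99.6% of the list, where each hormone library had 2.

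Of those 2 regions the right one was denser in each hormone library. Maximum densities on the left and right were 19.6 and 24.2 after Dex, 11.0 and 16.0 after E2, and 17.9 and 30.2 after Dex+E2. The ratios of left to right were 0.81 (0.59 to 1.10), 0.69 (0.48 to 0.98) and 0.59 (0.44 to 0.79), and their intervals overlap one another. No difference in this balance between the hormone libraries was detectable at this depth.

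Site 8 (chr2:9802611-9804515), 2.7 kb to the right, had maximum densities of 35.7 (30.0 to 42.1), 12.5 (9.30 to 16.4), 9.20 (6.73 to 12.3) and 14.5 (11.2 to 18.5), with averages of 5.81, 2.62, 2.23 and 3.56. The order of the libraries was that of site 7. Site 3 (chr2:9788602-9789235) lay 11.9 kb to the left of site 7 and was listed at 11.0 untreated, 6.12 after Dex and 5.22 after Dex+E2, with averages of 3.52, 2.15 and 1.15. Site 4 (chr2:9796561-9797183) was listed at 6.38 in untreated cells (4.13 to 9.41) and 7.10 after Dex (4.76 to 10.2), with averages of 1.42 and 1.51.

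Among the Gata3 sites of 1 list, site 1 (chr2:9739490-9740340) was the densest member site that no hormone library listed, at 13.5 in untreated cells (10.1 to 17.7) and an average of 3.19. Maximum densities between 6.63 and 7.14 were listed in untreated cells alone at 4 other sites. These were site 2 (chr2:9782412-9782906) at 6.63 with an average of 1.70, site 5 (chr2:9797345-9797823) at 7.14 with an average of 1.82, site 6 (chr2:9798910-9799354) at 6.89 with an average of 1.68, and site 9 (chr2:9825796-9826276) at 6.63 with an average of 2.01. Site 10 (chr2:9852192-9852625) was listed after E2 alone, at 5.00 (3.24 to 7.38) and an average of 1.20.

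**Figure D4:**
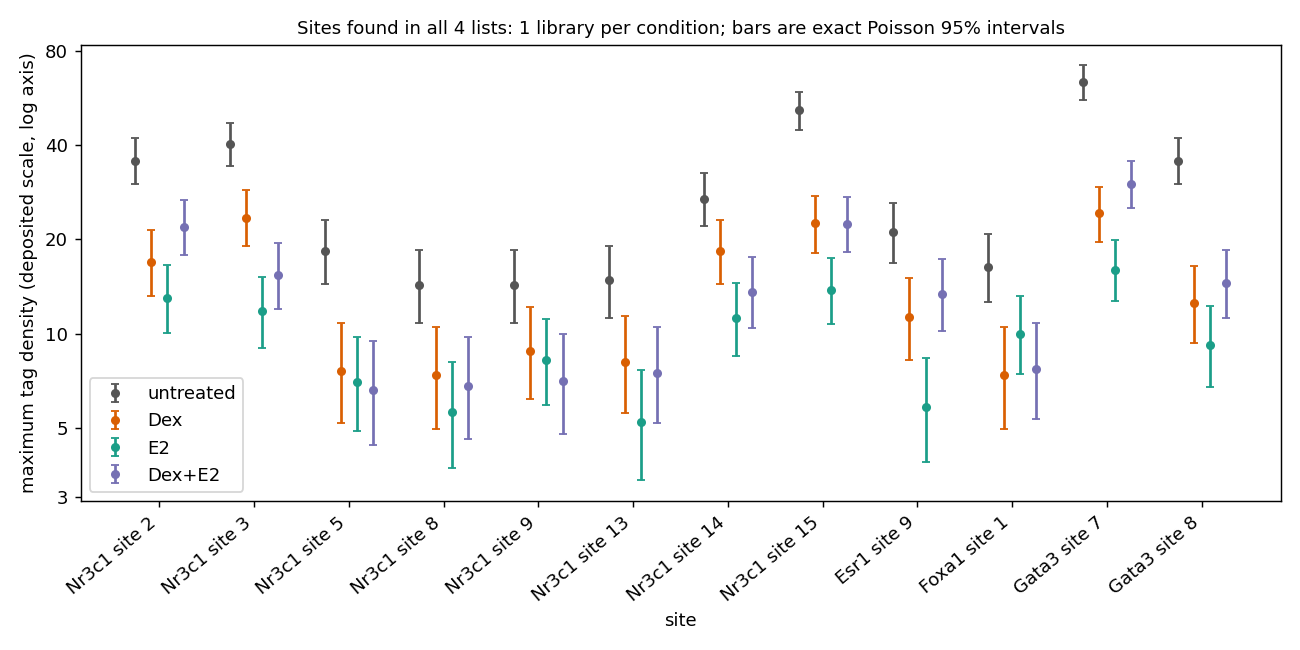
Maximum tag density (vertical axis, deposited scale, log axis) at the 12 sites found in all 4 lists, 1 point per library with its exact Poisson 95% interval. The untreated point is the highest at every site, from 14.3 to 63.8, and E2 is the lowest at 9 of the 12 (3 of the 12 among the hormone libraries relative to the median). The share of all shared regions with E2 lowest was not computed.

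The comparisons of the libraries ask how activation of GR, of ER or of both changed accessibility. At the 12 sites in all 4 lists the untreated library had the highest deposited density each time, a shift shared with the genome. Against untreated, the 12 sites had a median log2 ratio of −1.02 with Dex, −1.48 with E2 and −1.07 with both hormones, each close to the median over all shared regions. Changes at single sites are therefore given relative to the median over those regions. On this scale the medians of the 12 sites were 0.02, 0.08 and −0.12. All 3 of these comparisons share the untreated library.

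Relative to the median, none of the 12 sites was 2-fold higher or lower in any of the 5 comparisons. For Dex against untreated, 6.75% of all shared regions were 2-fold higher and 0.575% lower. For E2 against untreated these were 7.87% and 0.45%, and for Dex+E2 against untreated 7.07% and 1.67%. For Dex+E2 against Dex they were 1.92% and 0.793%, and against E2 1.97% and 0.86%. A count of 0 among 12 is near these background shares. As deposited, 6 of the 12 were 2-fold lower after Dex (54.1% of shared regions), 10 after E2 (83.9%) and 8 after Dex+E2 (45.8%). On that scale Esr1 site 9 was 2-fold higher in Dex+E2 than in E2, as were 13.5% of shared regions.

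After Dex, the highest relative value among the 12 was at Nr3c1 site 14, at log2 0.49 (counting interval 0.04 to 0.93). The lowest were Gata3 site 8 at −0.47 (−0.96 to −0.0005) and Gata3 site 7 at −0.35 (−0.70 to −0.01). By average density Nr3c1 site 14 stood at 0.60, Gata3 site 8 at −0.14 and Gata3 site 7 at −0.26. The median of the denser 50% of shared regions is shifted by −0.08, further than both Gata3 intervals end from 0. The GR gene's sites lay on both sides of the median, from −0.23 at site 5 to 0.49. After E2, Foxa1 site 1 at 0.85 (0.29 to 1.41) and Nr3c1 site 9 at 0.76 (0.14 to 1.37) were highest, and Gata3 site 7 at −0.43 (−0.82 to −0.07) was lowest. By average density these were 0.61, 0.22 and −0.03, and the lowest was Nr3c1 site 2 at −0.19. For E2 the median of the denser shared regions is shifted by −0.14, further than the Gata3 site 7 interval ends from 0. That exclusion of 0 thus depends on the scaling. Nr3c1 sites 3 and 15 stood at −0.22 and −0.35 by maximum density and at 0.36 and 0.19 by average density. Esr1 site 9 stood at 0.13 after Dex and −0.31 after E2, with intervals that include 0. All of the maximum density values lay between the 5th and 95th percentile of the shared regions.

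After Dex+E2, 10 of the 12 sites were below the median ratio to untreated and 2 above it, Esr1 site 9 at 0.29 (−0.21 to 0.79) and Nr3c1 site 2 at 0.26 (−0.13 to 0.64). By average density 7 were below and 5 above, and with the median of the denser shared regions 8 and 4. The interval excluded 0 at 1 of the 12, Nr3c1 site 3 at −0.44 (−0.87 to −0.02). By average density this site stood at −0.14, and with the median of the denser shared regions at −0.38. That median is shifted by −0.06, further than the interval's upper end lies from 0, so the exclusion depends on the scaling. The share of all shared regions whose interval excludes 0 was not computed. The count of 1 among the 12 therefore cannot be set against a background. The lowest was Nr3c1 site 5 at −0.53 (−1.20 to 0.11). Set against Dex alone, the co-treated library was lowest at Nr3c1 site 3, at −0.66 (−1.13 to −0.20), and highest at Nr3c1 site 2, at 0.33 (−0.13 to 0.79). Set against E2 alone, it was lowest at Foxa1 site 1, at −0.94 (−1.61 to −0.28), where 1.25% of shared regions were lower, and at Nr3c1 site 9, at −0.79 (−1.51 to −0.08). It was highest at Esr1 site 9, at 0.64 (−0.02 to 1.34), above 93.8% of shared regions. By average density the Foxa1 value was −0.47 and the Esr1 value 0.44. By that measure the lowest sites were Nr3c1 site 14 at −0.67 against Dex, where site 3 stood at −0.30, and Nr3c1 site 5 at −0.67 against E2.

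**Figure D5:**
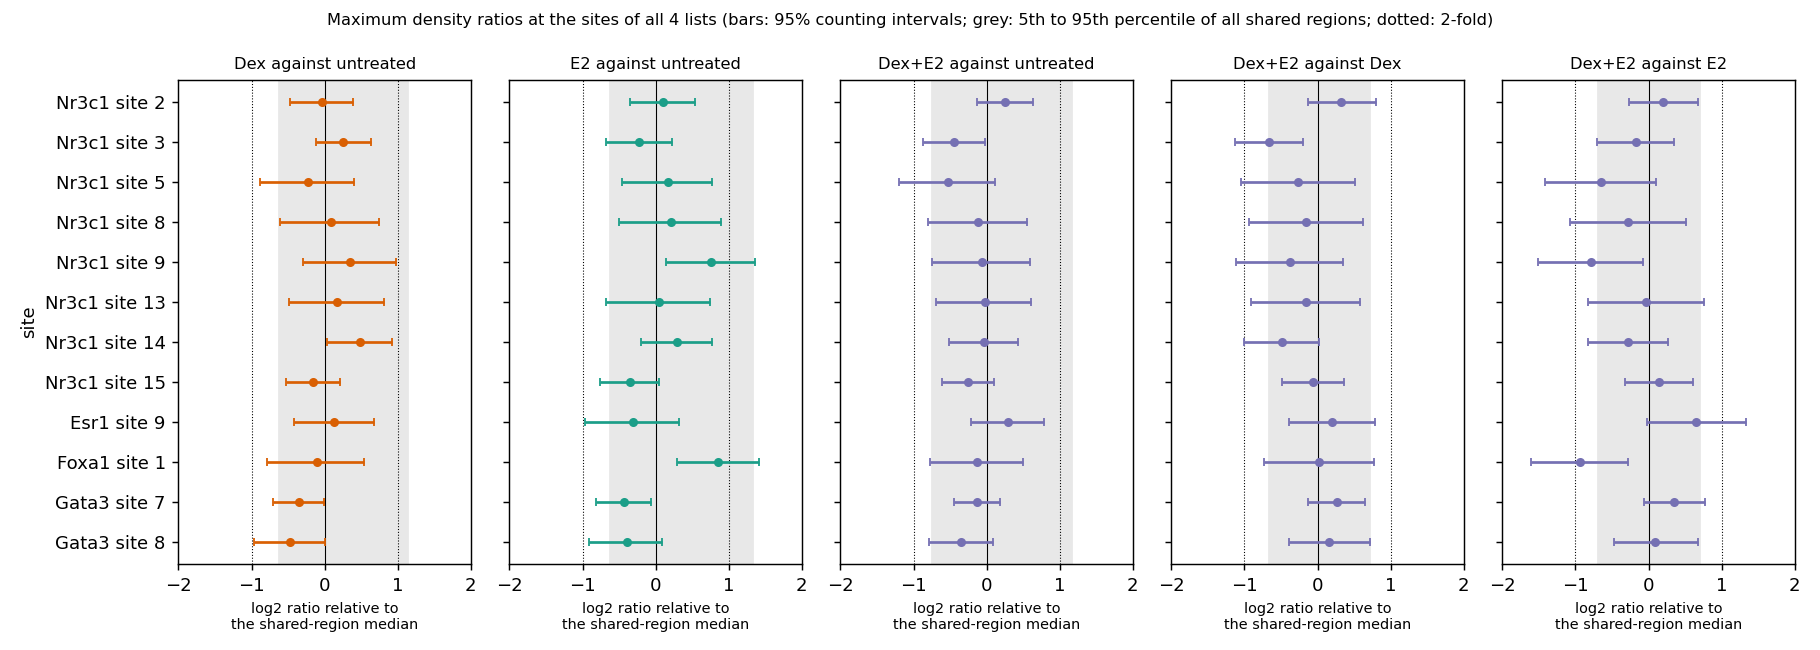
Log2 ratio of maximum densities relative to the median of all shared regions (horizontal axis) at the 12 sites of all 4 lists, 1 panel per comparison, with 95% counting intervals. Grey marks the 5th to 95th percentile of all shared regions and dotted lines 2-fold. All points lie inside the dotted lines, and the lowest is Foxa1 site 1 in Dex+E2 against E2, at −0.94.

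Of the sites missing from a list, 3 were more than 2-fold higher relative to the median in a comparison with untreated cells. Their deposited densities were similar in the 2 libraries compared, while the genome's median dropped. Nr3c1 site 6 was at a relative log2 of 1.17 (0.49 to 1.86) in Dex against untreated and Gata3 site 4 at 1.20 (0.38 to 2.03). Foxa1 site 4 was at 1.54 (0.70 to 2.40) in E2 against untreated. Below 2-fold, Nr3c1 site 6 was at 0.90 (0.21 to 1.60) in Dex+E2 against untreated. Esr1 site 11 was at 0.91 (−0.08 to 1.89) in Dex against untreated. In Dex against untreated, 8 sites missing from another list had a ratio, from −0.02 at Nr3c1 site 12 to 1.20, and the interval lay above 0 at 2 of them. Of these 8 ratios, 7 were above 0. The shares for all sites of the genome that are missing from a list were not computed, so these counts have no background. Such sites enter this comparison only where both libraries listed them, and they are not counted with the 12. A weak site that dropped with the genome's median could fall short of the listing limit and give no ratio. The selection thus favours ratios above 0, and the intervals do not cover it. Whether these sites kept their accessibility cannot be read from these values.

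The untreated list is the longest, with 65879 regions against 35496 to 51251, and more member sites were listed in untreated cells only than after a hormone only. For Dex against untreated, 3 of the 39 member sites in either list were in Dex only (21.2% of all merged sites in either list) and 16 in untreated only (40.5%). For E2 against untreated, 3 of 39 were in E2 only (12.5%) and 23 in untreated only (54.7%). For Dex+E2 against untreated, 1 of 37 was in Dex+E2 only (19.3%) and 21 in untreated only (41%). None of the sites gained in these comparisons was denser than 7.35. Against Dex, co-treatment listed 1 of 24 sites more (27.5%) and 8 fewer (29.8%), of which 5 were at Esr1. Against E2 it listed 4 of 20 more (41.1%), 3 of them at Nr3c1, and 4 fewer (16.8%). With every list cut to 35496 regions, the 4 windows held 17 untreated sites, 18 Dex sites, 16 E2 sites and 14 co-treated sites, so the excess of the untreated list was not seen at equal lengths.

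The limit for listing also differed between the windows. A summit of 6.63 in untreated cells, 26 tags in each case, had a deposited Z score of 8.73 at Esr1 site 2 but 7.11 at Gata3 sites 2 and 9. Among regions with a Z score under 6 within 2 Mb of the windows, the median maximum density in untreated cells was 5.87 around Foxa1, 4.59 around Nr3c1, and 4.34 around Esr1 and around Gata3, beside 5.10 over the genome. In the hormone libraries it was 1.14 to 1.17 times the genome's value around Foxa1 and 0.82 to 0.96 times around the other 3. The weakest listed regions were thus denser around Foxa1 than around Esr1, and the part of this in the counts per window was not tested. The neighbourhood size and the score limit were chosen after the data were examined.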

How the data were processed

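DNase-seq was available for 4 libraries, 1 per condition, and groups were taken from the treatment in the labels. Per the submitters' processing notes the build is mm9 and CASAVA 1.8 was used; the aligner and the region caller are not given in these sources. The authors deposited 1 list of regions per library with, per the file headers, a maximum and average tag density (a signal scaled per library to an unstated total), a Z score and a p-value. Scores and p-values refer to a region in its own library. Positions are printed as deposited, with the counting origin (0 or 1) not stated.

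Below a density of 100, 100% of maximum densities were whole multiples of a step within 0.1 tags (0.255 untreated, 0.245 Dex, 0.200 E2, 0.227 Dex+E2), read as 1 tag. The median region had 35, 32, 37 and 36 tags at its summit. Read totals were not used here. Lists held 65879, 51251, 35496 and 50061 regions.

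Regions that overlapped or touched were joined over the genome. A site has in each library the highest maximum and the highest average density of its regions. Log2 ratios were taken relative to the median ratio over the 20687 regions in all lists. Exact Poisson intervals and the Clopper-Pearson based ratio intervals are at 95%, treat tags as independent and cover counting error only; the choice of a summit is not covered. Members, motifs and gene lists were chosen with earlier results of these data known. Values are printed for every site. Lists of pathway genes and of cell type markers were to be read at promoters in mm9 and were not analysed here, since the gene tables are in GRCm38.p6. The functions recovered planted sites, steps and ratios in simulated data. Alternatives covered joining within 150 bp, window edges, list length, average density, scaling and a 1.5-fold limit. Python 3.11.15 was used with Matplotlib 3.10.9, SciPy 1.17.1, pandas 2.3.3 and NumPy 2.4.6.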

Additional observations from a re-analysis of the deposited data

How the results depend on the processing

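Joining regions within 150 bp, or keeping only regions wholly inside the window, left each number of sites per locus, in total and in all 4 lists, within 1.5 times. With every list shortened to its top 35496 regions by density, Esr1 had 3 sites in place of 12 and Gata3 6 in place of 10. In this setting the untreated list had 1 site at Esr1 (1221 bp), 1 at Foxa1 (629 bp) and 4 at Gata3, and the Dex list 2 at Esr1 (1225 bp). The setting holds fewer regions by construction. Without the untreated list, a setting added after the data were examined, Esr1 had 7 sites and Gata3 6. None of the 12 shared sites passed 2-fold relative to the median, also by average density. As deposited, 6 were 2-fold lower with Dex, 10 with E2 and 8 with both hormones against untreated, and 1 was higher for Dex+E2 against E2. At a 1.5-fold limit 2 were higher for E2 against untreated, 1 was lower for Dex+E2 against Dex, and against E2 1 was higher and 3 were lower. The share of all shared regions past 1.5-fold was not computed, so these counts cannot be set against a background. Of 60 relative log2 ratios, 56 kept within their counting interval by average density, all 60 with the median of the denser 50% of shared regions, and 19 as deposited, where 41 moved. The 4 that moved by average density were, for E2 against untreated, Nr3c1 site 3 (0.36), Nr3c1 site 15 (0.19) and Gata3 site 7 (−0.03), and, for Dex+E2 against untreated, Gata3 site 8 (0.12). Average density is a mean over the listed region, whose length differed between libraries. Nr3c1 site 15 had 3000 bp untreated and 725 bp after E2, and Gata3 site 8 had 1881 bp untreated and 744 bp after Dex+E2. The part of length in these moves was not tested. No paired analysis was possible because each condition has 1 library and no test was made. The limits are 1 library per condition, an unstated scaling total, and 17 to 26 tags at the summit of the Esr1 sites of 1 list.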
